A study of Homo sapiens with 12 samples.

Results

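The genes described here are 9 regulators of growth and of chromosome ends in U2OS, a human osteosarcoma cell line: MDM2, CDKN1A, CDKN2A, CDKN2B, RB1, MYC, TERT, ATRX and DAXX. They were chosen by name, and everything called in their gene bodies and in the 20 kb on either side was collected from 9 lists of open-chromatin peaks. Shares of all genes are over 15813 protein-coding genes with a mapped start, that is, one in RefSeq's promoter table. These hold 6 of the 9 genes, and MYC, ATRX and DAXX are not among them. The windows merge into 8 stretches of 0.928 Mb in all, since those of CDKN2A and CDKN2B overlap. Every one of the 9 genes had at least 1 called region in at least 1 list.

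The assay was ATAC-seq, which reads open chromatin from the cuts of a transposase, and the 12 samples form 6 groups of 2. The FOXA2 set holds a wild type (labelled WT), Tet-on cells with full-length FOXA2 (FOXA2FL) and Tet-on cells with FOXA2 lacking the part named CTD (FOXA2dCTD), with 1 peak list for each of the 6 libraries. The SOX2 set holds a wild type of its own (WT_SOX2_CellLine), Tet-on cells with SOX2 (SOX2FL) and Tet-on cells with SOX2 joined to the FOXA2 CTD (SOX2FLFOXA2CTD), with 1 list for each pair of samples. FOXA2 and SOX2 are pioneer factors, able to bind their sites in closed chromatin, and the design asks which regions open with each construct and with or without the CTD. All 4 construct groups had doxycycline at 500 ng/ml for 4 days. The wild types have no genotype and no treatment entry, but the protocol text shared by all samples names doxycycline, so whether wild-type cells received it is not known, nor whether the wild type of the SOX2 set was the parental line or the uninduced SOX2 line. The labels do not say whether each Tet-on line is a clone. U2OS differs from bone in that it is an aneuploid tumour line.

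MDM2 is the ubiquitin ligase that keeps p53 low and is itself a p53 target, and CDKN1A encodes p21, the cyclin-dependent kinase inhibitor through which p53 arrests the cell cycle. CDKN2A encodes p16 (and, from a separate start, ARF), CDKN2B encodes p15, and both inhibitors keep RB1 active, while MYC drives growth. TERT is the catalytic subunit of telomerase. U2OS lacks telomerase activity and maintains telomeres by recombination (ALT), a state associated with loss of ATRX, which together with DAXX deposits histone H3.3 at telomeric repeats.

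Peaks are described by the authors' −log10 p, the strength with which the peak caller separated a peak from its local background, and by their percentile, the share of peaks in the same list at or below that strength (ties share their mean rank). The percentile can be read across lists only with care, because the FOXA2-set lists hold from 19862 peaks (wild-type library 1) to 161136 (full-length library 1). The SOX2-set lists hold 48142 (wild type), 65628 (SOX2) and 75544 (fusion) entries at a global irreproducible discovery rate (IDR) of at most 0.05. IDR asks whether a peak has a like rank in both inputs. In those lists −log10 p is the value of the weaker input. Entries above that IDR were deposited too and are named here as failing IDR. With 2 libraries against 2, an exact permutation test cannot go below a two-sided p of 0.333, and the SOX2 set has 1 list a group, so what follows is description without tests. Read depth is unknown. As a check of the label, 9 mesenchymal, 5 epithelial and 5 blood marker genes were listed. Only 4, 1 and 2 of them had a mapped start, and the others were not read. The 4 mesenchymal genes (VIM, SPARC, RUNX2 and CD44) were each called at the promoter in 6 to 9 lists. The epithelial part rests on 1 gene, CLDN4, called in 2 lists, and the blood genes PTPRC and CD79A were called in 0. Among all 15813 genes, 1157, 1583, 2116 and 3795 were called in 6, 7, 8 and 9 lists, and 3633 in none. The check is therefore a limited one.

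A promoter was called when a peak touched the 1 kb on either side of a start. In the FOXA2 set, 3 of the 9 promoters were called in wild-type library 1 (39.4% of all protein-coding genes) and 3 in wild-type library 2 (37.6%). Full-length FOXA2 had 5 in library 1 (67.5%) and 5 in library 2 (59.2%), and the CTD deletion had 3 in library 1 (53%) and 7 in library 2 (67.7%). In the SOX2 set the wild type had 4 (58.9%), SOX2 had 4 (61.3%) and the fusion had 1 (56.3%). RB1, MYC and ATRX were the promoters called in both wild-type libraries of the FOXA2 set. RB1 and ATRX were called in 8 of 9 lists, MYC in 7, MDM2 in 5, CDKN1A in 4, DAXX in 2, CDKN2B in 1, and CDKN2A and TERT in none. Across all genes, 24% were called in all 9 lists and 23% in none. The gene windows were read in the same way. No peak was called in 6 of the 9 windows in wild-type library 1 (35.2% of all gene windows) and in 6 in wild-type library 2 (39.6%), where RB1, MYC and ATRX were the windows with peaks. The count of empty windows was 1 and 3 with full-length FOXA2 (3.03% and 15.3%) and 3 and 0 with the CTD deletion (12.4% and 3.76%). It was 3 in the SOX2-set wild type (12.8%), 1 with SOX2 (9.82%) and 1 with the fusion (10.8%). Peaks per Mb in the member windows ran from 4.31 to 49.6 over the FOXA2-set lists, beside 6.55 to 53.2 over the genome. In the SOX2 set the windows held 13, 17 and 13 peaks in wild type, SOX2 and fusion, while peaks per Mb of genome went from 15.9 through 21.7 to 24.9. With each list of the FOXA2 set limited to its 19862 strongest peaks, the promoter count of CTD-deletion library 2 went from 7 to 3, beside 35.2% of all genes. At promoters, the members' count lay below the share of all genes in every list except CTD-deletion library 2. In the fusion list 1 of 9 stands beside 56.3%, and 5 of the other 8 promoters had entries there that failed IDR.

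**Figure D1:**
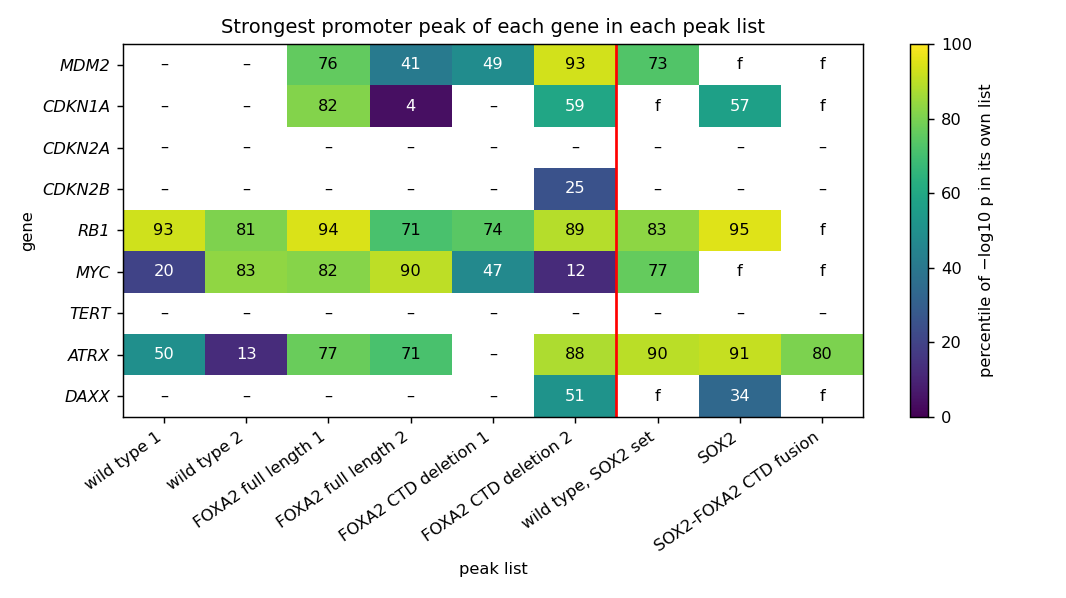
Percentile (colour and number) of the strongest promoter peak of each of the 9 genes (rows) within each of the 9 peak lists (columns). The red line separates the FOXA2 set from the SOX2 set, a dash marks no entry and f marks an entry that failed IDR. RB1 and ATRX fill 8 of 9 columns, and TERT and CDKN2A have no entry in any.

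MDM2 (chr12:68808172-68850686, GRCh38, plus strand) has a start at its 5′ end and another 845 bp into the gene, the promoter through which p53 is known to act. The sequence before the inner start is shown because peaks over it separated the lists. It is the 250 bases at chr12:68808767-68809016, plus strand, from RefSeq (GRCh38.p14), with capitals on 2 matches to the p53 response element.
MDM2 inner promoter: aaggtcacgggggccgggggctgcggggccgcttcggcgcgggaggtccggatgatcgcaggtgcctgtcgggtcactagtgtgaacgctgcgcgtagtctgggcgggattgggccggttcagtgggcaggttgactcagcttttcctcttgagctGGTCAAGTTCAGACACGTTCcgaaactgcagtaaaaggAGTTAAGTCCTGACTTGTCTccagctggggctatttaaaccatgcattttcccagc
The matches begin 94 and 56 bases before the start and have 2 and 3 mismatches, counted against the 20-base element with at most 3 allowed on either strand. By this rule 4.31% of 27305 promoters hold a match.

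The MDM2 promoter had no peak in wild-type library 1 or 2. It had a −log10 p of 5.20 and 11.4 with full-length FOXA2, and 4.74 and 9.16 with the CTD deletion, at percentiles of 75.8, 40.8, 48.6 and 93.0. All 4 construct libraries thus had the peak that both wild-type libraries of that set lacked. The wild type of the SOX2 set did have it, at 18.6 (percentile 73.0), so the wild types of the sets differ in this call, in lists made in different ways. With SOX2 the entry failed IDR (0.296, inputs at 7.34 and 26.1), as with the fusion (0.169, inputs at 6.77 and 20.7), and in both the inputs were unequal. Both p53-element matches lay under a peak in 4 of 9 lists, namely both full-length libraries, CTD-deletion library 2 and the wild type of the SOX2 set. A region 13.1 kb before the gene (chr12:68794667-68795393) was likewise absent from both wild types and present in all 4 FOXA2 libraries, at −log10 p of 8.27, 12.4, 7.81 and 7.11. At that position the 3 SOX2-set lists held only entries failing IDR. A region 22.3 kb into the gene (chr12:68830231-68830732) was called in both CTD-deletion libraries, at 3.38 and 6.07, and the SOX2-set region over it was called with SOX2 (13.5) and the fusion (8.10) but failed IDR in their wild type. A region 6.3 kb before the gene was called in the SOX2-set wild type (12.8) and with SOX2 (14.9), and failed IDR with the fusion. CTD-deletion library 2 also had a peak within it (2.95).

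CDKN1A (chr6:36676463-36687332, plus strand) has a start at its 5′ end and the start of its main mRNA 2251 bp downstream. No list had a peak within 1 kb of the 5′ end, and all calls were at the inner start, shown with capitals on the GC box GGGCGG (either strand), the element bound by SP1-type factors. The 250 bases are chr6:36678464-36678713, plus strand, from RefSeq (GRCh38.p14).
CDKN1A inner promoter: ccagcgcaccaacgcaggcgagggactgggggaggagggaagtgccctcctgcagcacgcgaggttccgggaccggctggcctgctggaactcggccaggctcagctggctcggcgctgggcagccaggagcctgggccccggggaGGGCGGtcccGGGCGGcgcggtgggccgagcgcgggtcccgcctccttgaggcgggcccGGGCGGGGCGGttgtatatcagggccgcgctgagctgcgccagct
This stretch holds 4 GC boxes, of which the nearest to the start overlaps its neighbour, against at least 1 in 42.3% of all promoters. Its G+C content is 76.4%, where the median promoter has 58%, and no p53 element match lies in these bases.

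The CDKN1A promoter was called in neither wild-type library of the FOXA2 set. It was called with full-length FOXA2 at −log10 p of 5.65 and 6.85 (percentiles 81.5 and 3.91), by different peaks, and in CTD-deletion library 2 only at 4.24 (59.1). The peak of full-length library 2 lay 543 bp past the start and that of library 1 ended 20 bp before it. SOX2 had a call at 13.0 (56.8), while the wild-type entry failed IDR (0.526, inputs at 19.8 and 2.82) and so did the fusion entry (0.343, inputs at 12.3 and 2.37). The reads there cannot be told apart from those of DINOL, a noncoding gene that overlaps this start. A second region 4.0 kb into the gene (chr6:36680033-36680934) was called in both CTD-deletion libraries (4.85 and 4.94), in full-length library 2 (6.85) and in no wild type of the FOXA2 set. In the SOX2 set this region was called in all 3 lists, wild type included (15.8). With SOX2 the entry over it was the same 1 that gave the promoter call (13.0). The merged SOX2-set region over both (chr6:36678425-36680859) was therefore not gained with SOX2. A region 9.1 kb before the gene (chr6:36666898-36667801) was called with SOX2 (8.09) and the fusion (8.73), and the wild-type entry missed the IDR limit narrowly at 0.062. Full-length library 1 (2.83) and CTD-deletion library 1 (4.18) also had peaks there.

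CDKN2A (chr9:21967752-21995324, minus strand) and its neighbour CDKN2B (chr9:22002903-22009313, minus strand) were the emptiest of the growth genes. The ARF start is the 5′ end of CDKN2A, and p16 starts 20.5 kb downstream of it. The p16 promoter is shown as the CpG-rich sequence that no list covered, chr9:21974858-21975107, minus strand, from RefSeq (GRCh38.p14), with its GC box in capitals.
CDKN2A p16 promoter: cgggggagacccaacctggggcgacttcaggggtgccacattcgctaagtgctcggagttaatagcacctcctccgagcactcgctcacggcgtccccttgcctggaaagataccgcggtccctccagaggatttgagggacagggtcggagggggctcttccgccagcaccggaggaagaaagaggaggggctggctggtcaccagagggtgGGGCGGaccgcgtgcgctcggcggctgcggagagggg
Its G+C content is 66.8%, as is that of the ARF promoter, and that of CDKN2B is 66.4%. All 3 lie above the median promoter.

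In the 81.6 kb that cover both genes and their flanks, no peak was called in either wild-type library of the FOXA2 set, in full-length library 2, in CTD-deletion library 1 or in the wild type of the SOX2 set. Full-length library 1 had 3 peaks, CTD-deletion library 2 had 2, SOX2 had 1 and the fusion had 2. The 2 FOXA2-set libraries with peaks there are those with the longest lists, 161136 and 146854 peaks. The only promoter call was that of CDKN2B in CTD-deletion library 2, at −log10 p of 3.08 and percentile 25.2. Neither start of CDKN2A had an entry in any list, at any IDR. No region passed in both libraries of a FOXA2 construct. SOX2 and the fusion shared a weak region 43.7 kb downstream of the ARF start (chr9:21951420-21951911), at 7.10 and 6.57, in the lowest 8.49 and 14.9 percentiles. The fusion alone had a called region 3.0 kb before the ARF start (chr9:21998045-21998574), at 6.57, in the body of the antisense gene CDKN2B-AS1.

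**Figure D2:**
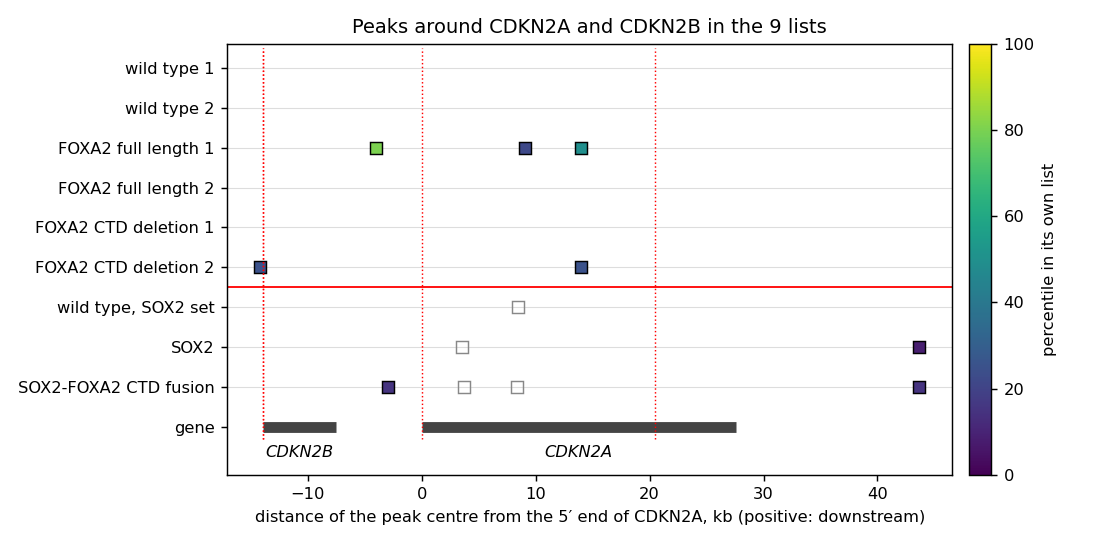
Peaks (squares, coloured by percentile in their own list) around CDKN2A and CDKN2B in each of the 9 lists, by distance in kb from the 5′ end of CDKN2A. Open grey squares failed IDR, dotted red lines are starts, bars are gene bodies, and the red line separates the sets. The start at 20.5 kb, that of p16, has no square in any row.

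RB1 (chr13:48303751-48481890, plus strand), the pocket protein that restrains E2F, was the most regular member. Its promoter peak had −log10 p of 14.6 and 17.5 in wild type, 8.74 and 17.7 with full-length FOXA2, and 6.64 and 7.72 with the CTD deletion. The percentiles ran from 71.2 to 94.2, so the peak was in the upper 30% of all 6 lists. It also had 23.4 in the SOX2-set wild type and 34.5 with SOX2 (percentiles 83.1 and 95.2). With the fusion the entry failed IDR (0.332), with one input at 22.3 and the other at 4.44. The noncoding gene RB1-DT starts within the same peak, and the signal of the 2 starts cannot be told apart.

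Inside RB1 a region 97.3 kb from the start (chr13:48400724-48401477), where the gene LPAR6 lies within RB1, was absent in both wild types and called in all 4 FOXA2 libraries. Its −log10 p was 6.70 and 13.5 with full-length FOXA2 and 6.26 and 5.61 with the CTD deletion, and no SOX2-set list had an entry there. The CTD deletion had 4 further regions in the window that both its libraries called and neither wild type did. The stronger 2 were 94.9 kb from the start (3.07 and 5.69) and 143.1 kb from it (5.70 and 4.01). The latter, however, was also called in full-length library 1 (2.83) and in all 3 SOX2-set lists, wild type included, at 7.69, 14.7 and 11.7. Of the 25 FOXA2-set regions in the RB1 window, 19 were in a single list.

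MYC (plus strand, no other protein-coding gene within 20 kb) had 2 regions called in all 6 FOXA2-set libraries, at its promoter and 20.9 kb downstream. The promoter had −log10 p of 5.83 and 18.6 in wild type, 5.73 and 28.3 with full-length FOXA2, and 4.64 and 2.93 with the CTD deletion. Its percentiles ranged from 12.4 to 89.9, with the lowest 2 in CTD-deletion library 2 and wild-type library 1, so wild-type and construct libraries overlapped. With lists of equal length, both CTD-deletion libraries and full-length library 1 lost the promoter call. At a common −log10 p threshold of 5.43, both CTD-deletion libraries lost it. Both wild types kept it under each setting. The length was that of wild-type library 1, and the threshold was the lowest value of wild-type library 2. Each of these lists was left whole by its own setting, so there its call could not be lost. The downstream region had −log10 p of 13.6 and 12.4 in the wild types (percentiles 90.9 and 58.0). In the construct libraries it had 3.85, 6.85, 4.48 and 4.00 (58.0, 3.91, 45.0 and 45.5). By percentile, wild-type library 2 and full-length library 1 were level, so the libraries were separated by −log10 p only.

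In the SOX2 set the same 2 MYC regions were called in wild type only. The promoter had 19.96 in the wild type, against entries failing IDR with SOX2 (0.337, inputs at 20.3 and 4.72) and the fusion (0.344, inputs at 2.31 and 14.6). The downstream region had 26.6 in the wild type (percentile 87.9, inputs at 42.8 and 26.6), against failing entries with SOX2 (inputs at 5.83 and 11.5) and the fusion (4.44 and 13.5). There all 4 construct inputs lay below both wild-type inputs. Another region 2.7 kb into the gene went the same way, with 9.94 in the wild type and inputs of 5.49 and 5.70 with SOX2 and 5.08 and 4.21 with the fusion. The call did not change at 2 positions. The regions 1.3 kb before and 7.9 kb after the start were called in all 3 lists. SOX2 (6.33) and the fusion (7.14) had a weak region 9.4 kb before MYC, where the wild-type entry failed IDR at 0.070.

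**Figure D3:**
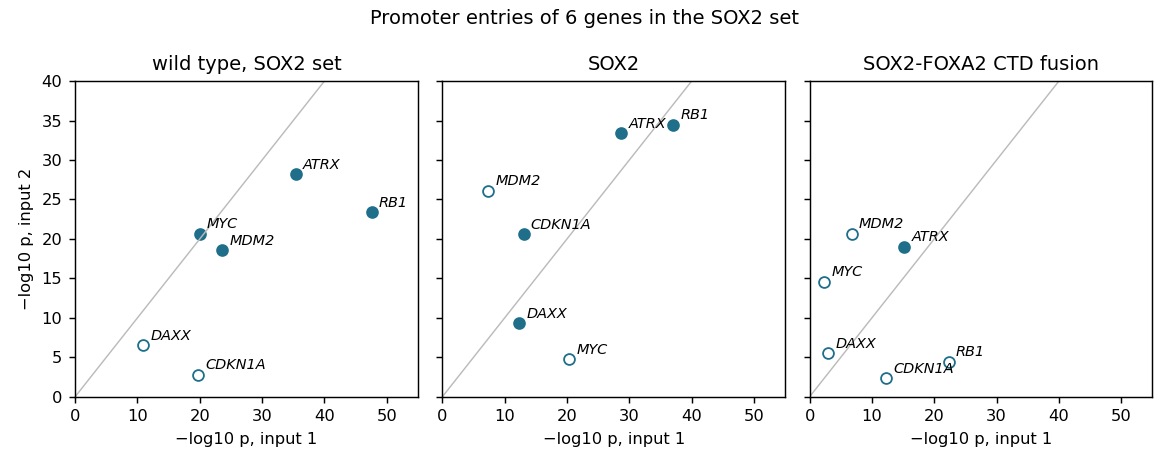
The −log10 p of input 1 (horizontal) and input 2 (vertical) for the strongest promoter entry of 6 genes in the 3 SOX2-set lists. Filled circles passed IDR, open circles failed it, and the grey line marks equal inputs. In the fusion list ATRX is the filled circle, and RB1, MYC, MDM2 and CDKN1A lie away from the line.

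TERT (chr5:1253167-1295068, minus strand) had no promoter entry in any of the 9 lists, the failing entries included. Its promoter, chr5:1295069-1295318, minus strand, from RefSeq (GRCh38.p14), is shown as a promoter over which no list held an entry, with GC boxes in capitals.
TERT promoter: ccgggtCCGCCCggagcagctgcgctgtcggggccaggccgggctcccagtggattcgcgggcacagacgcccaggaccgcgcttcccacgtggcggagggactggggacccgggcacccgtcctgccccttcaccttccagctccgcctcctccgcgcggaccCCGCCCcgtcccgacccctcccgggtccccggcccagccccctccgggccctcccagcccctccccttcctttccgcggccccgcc
It holds 2 GC boxes and 1 E-box CACGTG, the MYC site, which 6.49% of all promoters hold, and its G+C content of 78.8% exceeds that of 95.5% of them.

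The strongest FOXA2-associated region of any member lay 12.8 kb upstream of this promoter (chr5:1307368-1308279). It had no entry in wild-type library 1 or 2. With full-length FOXA2 its −log10 p was 14.6 and 59.6 (percentiles 99.3 and 99.1), with authors' fold enrichments of 7.46 and 19.1. With the CTD deletion it was 8.15 and 10.5 (84.5 and 95.5), with fold enrichments of 5.04 and 6.70. All 4 construct libraries thus had the peak and both wild types lacked it. Ranked by mean percentile, it was number 41 of 24999 regions gained with full-length FOXA2 and number 1413 of 24077 gained with the CTD deletion. No SOX2-set list had an entry there at any IDR. A weaker region 48.0 kb downstream of the start was gained with full-length FOXA2 (2.70 and 7.71) and, in the SOX2 set, with SOX2 (8.42). It was also called in CTD-deletion library 2 (3.92). With the CTD deletion 2 weak regions were gained inside the gene, 21.9 kb downstream (5.74 and 2.90) and 4.4 kb downstream (5.16 and 4.00). The latter was also called in full-length library 1 (3.03). None of the 3 wild-type lists had a called peak anywhere in the TERT window.

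**Figure D4:**
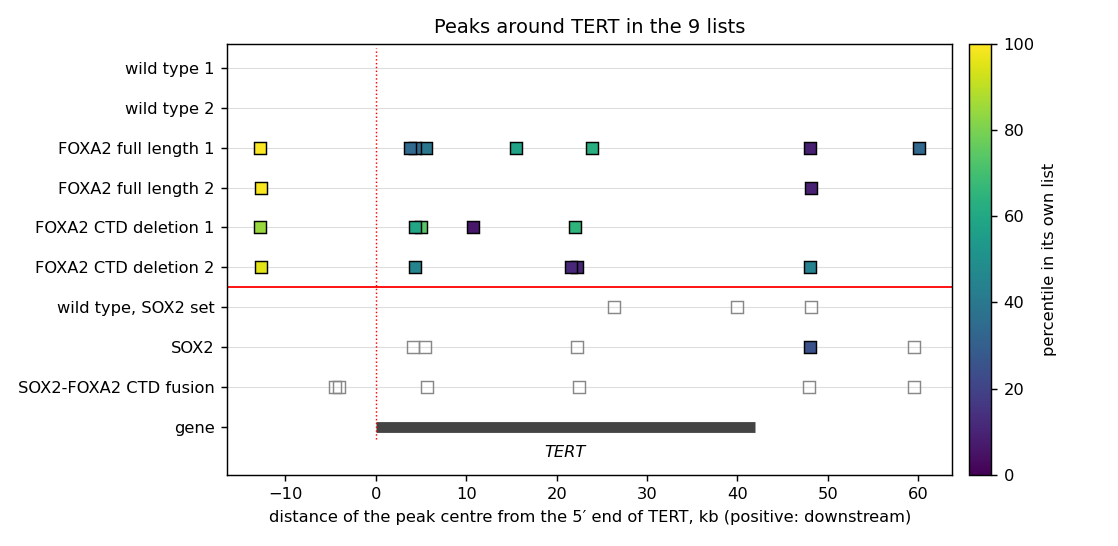
Peaks (squares, coloured by percentile in their own list) around TERT in each of the 9 lists, by distance in kb from its 5′ end, with open grey squares for entries that failed IDR. The 4 squares 12.8 kb upstream are those of the 4 FOXA2 construct libraries, and the dotted line at the start has no square in any row.

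ATRX (chrX:77504880-77786216, minus strand), the chromatin remodeller of the ATRX-DAXX pair, kept its promoter peak in 8 lists. The −log10 p was 7.55 and 7.85 in wild type, 5.39 and 17.7 with full-length FOXA2, absent and 7.37 with the CTD deletion. In the SOX2 set it was 28.2 in wild type, 28.7 with SOX2 and 15.2 with the fusion, at percentiles of 89.7, 91.2 and 80.2. It was the 1 member promoter that the fusion list called.

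Every construct had regions in the 3′ part of ATRX that its wild type lacked. The region 223.2 kb from the start (chrX:77562666-77563338) was called in all 4 FOXA2 libraries, at 4.42, 13.5, 9.79 and 6.83, and in neither wild type. The region 213.1 kb from the start (chrX:77572720-77573516) was called with the CTD deletion at 4.18 and 8.33, and in full-length library 1 at 5.65. SOX2 and the fusion shared regions at 271.0 kb (chrX:77514700-77515821), with 21.1 and 17.2, and at 237.3 kb (chrX:77548410-77549350), with 24.5 and 16.1, neither of which had a wild-type entry at any IDR. Full-length FOXA2 library 1 also had a peak within the region at 237.3 kb (4.65). A region at 221.3 kb was called with SOX2 (10.2) and failed IDR with the fusion. A region 291.9 kb from the start, past the gene's end, was called in the SOX2-set wild type alone (7.69).

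Between the promoter side and these regions, 135.6 kb of ATRX (chrX:77605118-77740714, 45.5 to 181.1 kb from the start) held no entry in any list at any IDR. This is 48.2% of the gene, and was singled out after its values were seen. Of 2316 genes at least as long as this stretch, 10 held a stretch as long, which is 0.432%. On chromosome X it was 5 of 92. Among 536 genes of 0.8 to 1.2 times the length of ATRX the median longest stretch was 24.7 kb, and 2 genes had one as long. All of these counts include ATRX itself. Whether the DNA of the stretch is present in these cells was not tested.

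**Figure D5:**
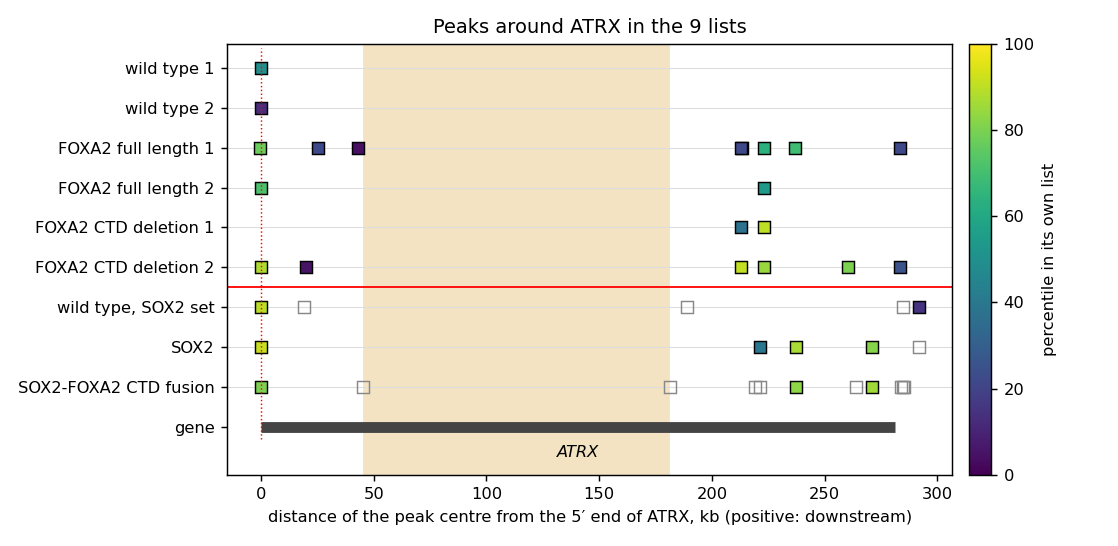
Peaks (squares, coloured by percentile in their own list) around ATRX in each of the 9 lists, by distance in kb from its 5′ end, with open grey squares for entries that failed IDR. The shaded stretch from 45.5 to 181.1 kb has no square in any row, while the promoter has one in 8 of 9.

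DAXX (chr6:33318558-33322959, minus strand), the H3.3 chaperone, had a promoter peak in CTD-deletion library 2 (−log10 p of 4.01, percentile 51.5) and with SOX2 (9.35, percentile 34.0). The wild type of the SOX2 set had an entry that failed IDR at 0.087 (inputs at 10.9 and 6.52), and the fusion one at 0.511. SOX2 (9.59) and the fusion (6.97) shared a region 5.0 kb downstream of the start (chr6:33317580-33318253), at the start of ZBTB22. CTD-deletion library 2 also had a peak within it (5.01, percentile 69.9). A region 22.9 kb downstream, at the start of RGL2, was called in the SOX2-set wild type alone, at 6.15 and percentile 0.853. DAXX lies in the major histocompatibility region, which is represented by several alternate contigs in the reference. In that region (28 to 34 Mb of chromosome 6) the lists called 0% to 22.5% of 169 promoters, against 36.8% to 69.2% of the 759 other promoters of the chromosome. The lists also held from 0 to 525 entries on the alternate contigs. The part of this in the DAXX calls was not tested.

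Over all member windows, the 76 FOXA2-set regions included 6 gained with full-length FOXA2, that is, called in both its libraries and in neither wild type, which is 7.89% against 9.06% of all 276021 regions. With the CTD deletion 14 were gained, 18.4% against 8.72%. Of these 14, 5 that were not gained with full-length FOXA2 had a peak in 1 of its libraries. Neither construct had a lost region in these windows (0.155% and 0.0576% of all regions, in 1.35% and 0.557% of all gene windows). Gained regions lay in the windows of 4 members with full-length FOXA2 (56% of all gene windows) and of 5 with the CTD deletion (50.5%). The 5 regions gained with both constructs were the MDM2 promoter and the regions 13.1 kb before MDM2, 97.3 kb into RB1, 12.8 kb before TERT and 223.2 kb into ATRX. Of these, 4 had no called peak in any SOX2-set list, the MDM2 promoter being the exception. Of the 15 regions gained with either construct, 14 were not at a member promoter.

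These counts depended on list length. When each FOXA2-set list was limited to its 19862 strongest peaks, 1 region was still gained with each construct, the one upstream of TERT, while the MYC region 20.8 kb downstream was lost with both constructs and the MYC promoter with the CTD deletion. The CTD deletion then had 2 lost regions and 1 gained. The length is that of wild-type library 1, so that list was left whole while the construct lists were cut. The balance of losses and gains therefore cannot be read as an effect of the construct. At a common −log10 p threshold of 5.43 for all 6 lists, the regions 13.1 kb before MDM2, 97.3 kb into RB1 and 12.8 kb before TERT were gained with both constructs. At that threshold the MDM2 promoter was gained with neither, the region 223.2 kb into ATRX with the CTD deletion alone, and both MYC regions were lost with the CTD deletion. Without full-length library 2 the gained count was 37, and without full-length library 1 it was 10. Without CTD-deletion library 1 it was 38. Lists also differed in how they were called: wild-type library 2 and full-length library 2 had no mitochondrial peaks and a lowest −log10 p above 5, and the other 4 lists had mitochondrial peaks. Within the first kind full-length FOXA2 gained 10 regions and within the second 39. The lists of the second kind were not alike either, with a lowest −log10 p of 3.44 in wild-type library 1 and 2.01 in full-length library 1. The CTD deletion had libraries of the second kind only.

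In the SOX2 set, 10 of 24 regions were gained with SOX2, 41.7% against 33.9% of all 102872, and 6 were lost (25% against 17%). With the fusion 8 were gained (33.3% against 43.7%) and 8 lost (33.3% against 17.1%). Windows of 7 members held a gained region with SOX2 (56.5% of all gene windows) and of 7 with the fusion (58.8%). Lost regions lay in 4 with SOX2 (42.7%) and 5 with the fusion (46.4%). Both comparisons share the same wild-type list. All 6 regions lost with SOX2 and 7 of the 8 lost with the fusion still had an entry that failed IDR, so what was lost there was the IDR pass and not every entry. Of the gained regions, 4 with SOX2 and 4 with the fusion had no wild-type entry at all, among them those at 271.0 and 237.3 kb in ATRX.

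The promoters of partner genes are given beside the members. No gene with a mapped start among the p53, RB, telomere, ALT-linked and MYC lists was without a promoter call in all 9 lists, beside 23% of all genes, and the counts called in all 9 lists below stand beside 24% of all genes. Of the telomere genes, 3 of 8 were called in all 9 lists (TERF2IP, TINF2 and POT1 of the shelterin complex), and the other 5 in 7 or 8, including DKC1, the telomerase RNA binding protein, in 8. Of the ALT-linked genes 8 of 11 were called in all 9, among them the H3.3 genes H3-3A and H3-3B and the helicase BLM, while SP100, of the PML bodies, was called in 5. Of the RB pathway 4 of 11 were called in all 9, including CDK4 and the p18 gene CDKN2C, a relative of CDKN2A. Of the p53 pathway 2 of 7 were called in all 9 (PPM1D and TP53I3), and BBC3, which encodes PUMA, was called in both full-length FOXA2 libraries alone. Of the MYC network 2 of 5 (MXD1 and MNT) were called in all 9.

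The on and off pattern of MDM2 over the 9 lists was shared by 15 other protein-coding genes, and that of CDKN1A by 43, of RB1 by 313, of MYC by 48, of ATRX by 78 and of DAXX by 25. Among genes with the same pattern, the nearest by promoter percentile were CLINT1 to MDM2 (a distance of 27.3 percentile points over the 9 lists), ADGRL3 to CDKN1A (22.9), NARS1 to RB1 (16.2), FAF2 to MYC (76.2), SPPL2A to ATRX (10.9) and GLUD2 to DAXX (3.71). CDKN2A and TERT shared theirs, no call in any list, with 3632 others each.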

How the data were processed

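ATAC-seq peak lists of 12 U2OS samples were read: 6 lists of single libraries (FOXA2 set) and 3 lists of sample pairs (SOX2 set; that each used both samples is assumed). Per the submitters' processing notes the tools were FastQC 0.10.1, Trim Galore, Bowtie2 2.4.4, SAMtools 0.1.18, MACS2 and deepTools 2.4.1, with build hg38; their settings are not given in the sources used here. The deposited fold enrichment is a ratio over local background and the deposited −log10 p is MACS2's. The deposited score of the SOX2 set is the −log10 global IDR. Deposited summit positions were used for distances only. The lowest −log10 p differed between lists, from 2.01 to 5.43 in the FOXA2 set, and read depth is unknown. How these bear on the counts of peaks was not tested, beyond the alternatives with lists of equal length and with a common threshold.

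Computed here, with Python 3.11.15, pandas 2.3.3 and numpy 2.4.6: chromosomes 1 to 22 and X, SOX2-set entries at global IDR at most 0.05, percentiles within each list, overlap of at least 1 bp, and merged regions per set. Gained means called in both libraries of a construct and in neither wild type (SOX2 set: by the construct but not by its wild type), and lost the reverse. Overlap code was tested on simulated regions. Starts are gene-model 5′ ends plus RefSeq promoter-table starts, which cover 15813 of 19974 protein-coding genes. The strands of MYC, ATRX and DAXX are textbook knowledge. Of the 9 genes, 6 had a promoter sequence in RefSeq's table. All 9 genes are named by rule, with gained or lost regions, and at most 3 per comparison and gene by mean percentile. The genes, lists and tests were chosen with earlier results of these data known. Alternatives covered IDR, list length, −log10 p threshold, promoter and flank width, overlap, lists with or without mitochondrial peaks, and left-out libraries.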

Additional observations from a re-analysis of the deposited data

How the results depend on the processing

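No paired analysis was possible because no model was fitted to which a replicate block could be added, and the SOX2 set has 1 list a group. Comparing same-numbered libraries of wild type and full-length FOXA2 gave 39 gained regions for number 1 and 10 for number 2. Of the recomputed values over the 9 genes and over all genes, 134 stayed within their limit and 64 did not. For counts the limit was 1.5 times the reported value. The 134 include 6 median promoter percentiles, for which the limit was the standard deviation of the medians of the group's libraries. Of the numbers of lists called per gene, 43 stayed within 1.5 times the reported value and 11 did not. The genes called in no list, CDKN2A and TERT, stayed at 0 lists under every alternative run. The cause of each move was not tested, except that fewer peaks enter where lists are shortened.

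With equal numbers of the strongest peaks, member promoters called were 1 and 3 with full-length FOXA2 and 0 and 3 with the CTD deletion, beside 5416, 5690, 4489 and 5559 of all genes. Peaks in the windows were then 4, 6, 3 and 5, and 6 with the fusion. Regions gained were 1 with full-length FOXA2, 1 with the CTD deletion, 6 with SOX2 and 3 with the fusion. Regions lost were 1 and 2 with the FOXA2 constructs in that order. The equal number was that of wild-type library 1, or of the wild type in the SOX2 set. These lists were left whole while the construct lists were cut. The count of CTD-deletion library 2 passed from above to below the share of all genes (3 of 9 beside 35.2%), as it did at the common threshold (3 of 9 beside 48.3%). With a common −log10 p threshold of 5.43 the promoters called were 3 in full-length library 1, and 1 and 3 with the CTD deletion. Peaks in the windows were 12 in full-length library 1, and 8 and 11 with the CTD deletion. Regions gained were 3 and 4 with the FOXA2 constructs, and 2 were lost with the CTD deletion, both at MYC.

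With all entries whatever their IDR, the fusion had 6 member promoters and 25 regions gained, and the windows held 32, 36 and 48 entries in wild type, SOX2 and fusion. Counting an entry that failed IDR as present in the list compared against left SOX2 with 4 gains and 0 losses, and the fusion with 4 gains and 1 loss. With promoters of 2 kb on each side the fusion had 3. Gene bodies without flanks held 28 and 12 peaks with full-length FOXA2, 16 and 30 with the CTD deletion, and 7, 9 and 7 in the SOX2 set. Regions gained were then 3 with full-length FOXA2, 5 with SOX2 and 3 with the fusion, and 3 and 4 were lost with SOX2 and the fusion. With 50 kb on each side the fusion had 23 peaks and 14 gained regions, and 10 regions were lost with SOX2. When a peak had to cover at least 50% of a region, 2 and 8 were gained and 1 and 1 lost with the FOXA2 constructs. No label names a batch, but among lists with mitochondrial peaks full-length FOXA2 gained 39, and among lists without them 10.

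Leaving out 1 library at a time, regions gained ranged from 6 to 37 with full-length FOXA2 and from 14 to 38 with the CTD deletion, and regions lost from 0 to 0 and from 0 to 1. Read depth is unknown, so a missing peak in a short list cannot be told apart from one below that list's threshold.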
